A study of Rattus norvegicus with 17 samples.

Results

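Oxidative phosphorylation genes were followed in the liver of rats dosed with IPP. This mixture, isopropylated phenol phosphate, is an aryl phosphate used as a flame retardant and a plasticizer. The members were all genes with a probe set of 1 symbol that begins with Nduf, Uqcr, Atp5, Sdh (Sdha to Sdhd) or Cox followed by 4 to 8, and each was read from its brightest probe set over the 17 arrays. This gave 86 of the 14217 genes measured. By name they fell into 36 genes of complex I, 6 complex I assembly factors (the Ndufaf genes), 4 of complex II, 7 of complex III, 17 of complex IV and 16 of complex V. The names do not all mark subunits. The 6 Ndufaf proteins build complex I, Atp5if1 inhibits the ATP synthase, Cox7a2l joins complexes into supercomplexes, Ndufa4 is now placed in complex IV, and Cox6c-ps1 is a pseudogene. A further 7 probe sets under these names carry several symbols and were not used here.

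Male Harlan Sprague-Dawley rats received corn oil alone (vehicle, 5 rats) or IPP in corn oil by gavage at 76.5, 153, 305.5 or 611 mg/kg body weight (3 rats each), once daily on 4 days. The treatment protocol writes these doses as 77, 153, 306 and 611 mg/kg, which are 0.169 mmol/kg at the lowest dose, then 0.338 and 0.675, and 1.35 mmol/kg at the highest. Left liver lobe was taken on day 5 and hybridised to 1 Affymetrix array per rat, with no pooling of animals stated. The labels give no ages. The comparisons ask whether any dose moved these genes from their vehicle level, and all doses are set against the same 5 vehicle rats.

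The respiratory chain sits in the inner mitochondrial membrane. Complex I takes electrons from NADH and complex II from succinate, both pass them to ubiquinone, complex III passes them on to cytochrome c, and complex IV hands them to oxygen. Complexes I, III and IV pump protons, and complex V, the ATP synthase, uses the returning protons to make ATP. Each complex other than II combines subunits from mitochondrial DNA with subunits encoded in the nucleus, and the genes described here are nuclear. Liver relies on this pathway to supply ATP for gluconeogenesis, urea synthesis and the handling of foreign compounds.

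Signals are deposited log2 values, which ran from 2.61 to 15.4 over all probe sets with array medians of 6.29 to 6.403 and correlations between arrays of 0.974 to 0.995. There were 3 arrays that stood apart from the other 14. That of 611 mg/kg rat 2 had a 3' minus 5' difference of 2.89 in the GAPDH control probe sets, a sign of RNA quality, against 0.93 to 1.56 on the other 16. Those of 76.5 mg/kg rats 2 and 3 had a median correlation with the others of 0.987 and 0.986. Of 8 measured hepatocyte markers, among them albumin, none passed the test at any dose, where 0.267% to 7.46% of all genes were called. Their median vehicle signal was 14.6, close to the highest value of 15.4. With 8 genes, this does not show that the hepatocyte part of the tissue was steady. In a piece of tissue, fewer cells of a type and less RNA per cell cannot be told apart. Precision is limited by the number of arrays, and p-values set each difference against the spread between these rats.

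The response of the members to IPP was small at every dose. Differences are log2 dose minus vehicle with the standard error (SE) of 1 limma fit over all 17 arrays (n = 3 per dose, n = 5 for vehicle), and a gene was called where its Benjamini-Hochberg adjusted p over all 14217 genes was under 0.05. At 76.5 mg/kg limma called 0 of the 86 members, where 0.267% of all genes were called, and 3 members had an unadjusted p under 0.05 (3.49%, against 10.7% of all genes). At 153 mg/kg limma again called 0 members (0.746% of all genes, 0.408% higher), and 0 had an unadjusted p under 0.05 where 11.9% of all genes did. At 305.5 mg/kg 1 member was called lower, Ndufb10 (1.47% of all genes lower, 2.22% in either direction), and 0 higher (0.753% of all genes). At that dose 13 members had an unadjusted p under 0.05, a share of 15.1% against 13.5% of all genes. At 611 mg/kg 1 member was called higher, Ndufaf1 (5.04% of all genes higher, 7.46% in either direction), and 0 were called lower (2.42% of all genes). There, 11 members had an unadjusted p under 0.05, a share of 12.8% against 24.2% of all genes. Over the rank of the dose, limma called 0 members (6.74% of all genes, 3.96% rising and 2.78% falling), with 15 at an unadjusted p under 0.05 (17.4%, against 21.3% of all genes).

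The data bound the size of any change. The 95% interval of the difference lay within 0.5 of zero on the log2 scale for 84 members at 76.5 mg/kg, 84 at 153 mg/kg, 82 at 305.5 mg/kg and 83 at 611 mg/kg, and within 1 for all 86 at each dose. Over all genes the share within 0.5 was 82.6%, 81.3%, 80.1% and 72.3% at the same doses. The median absolute difference of the members was 0.052, 0.048, 0.091 and 0.090 from the lowest dose to the highest, against 0.096, 0.102, 0.101 and 0.138 over all genes. The members also varied little between rats of 1 group. Their median within-group standard deviation (SD) was 0.11, from 0.06 for Uqcrq, a small subunit of complex III, to 0.39 for the assembly factor Ndufaf4. The 69 members with a vehicle mean of at least log2 10 had a median SD of 0.11, and all 2058 genes of that signal had 0.15.

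**Figure D1:**
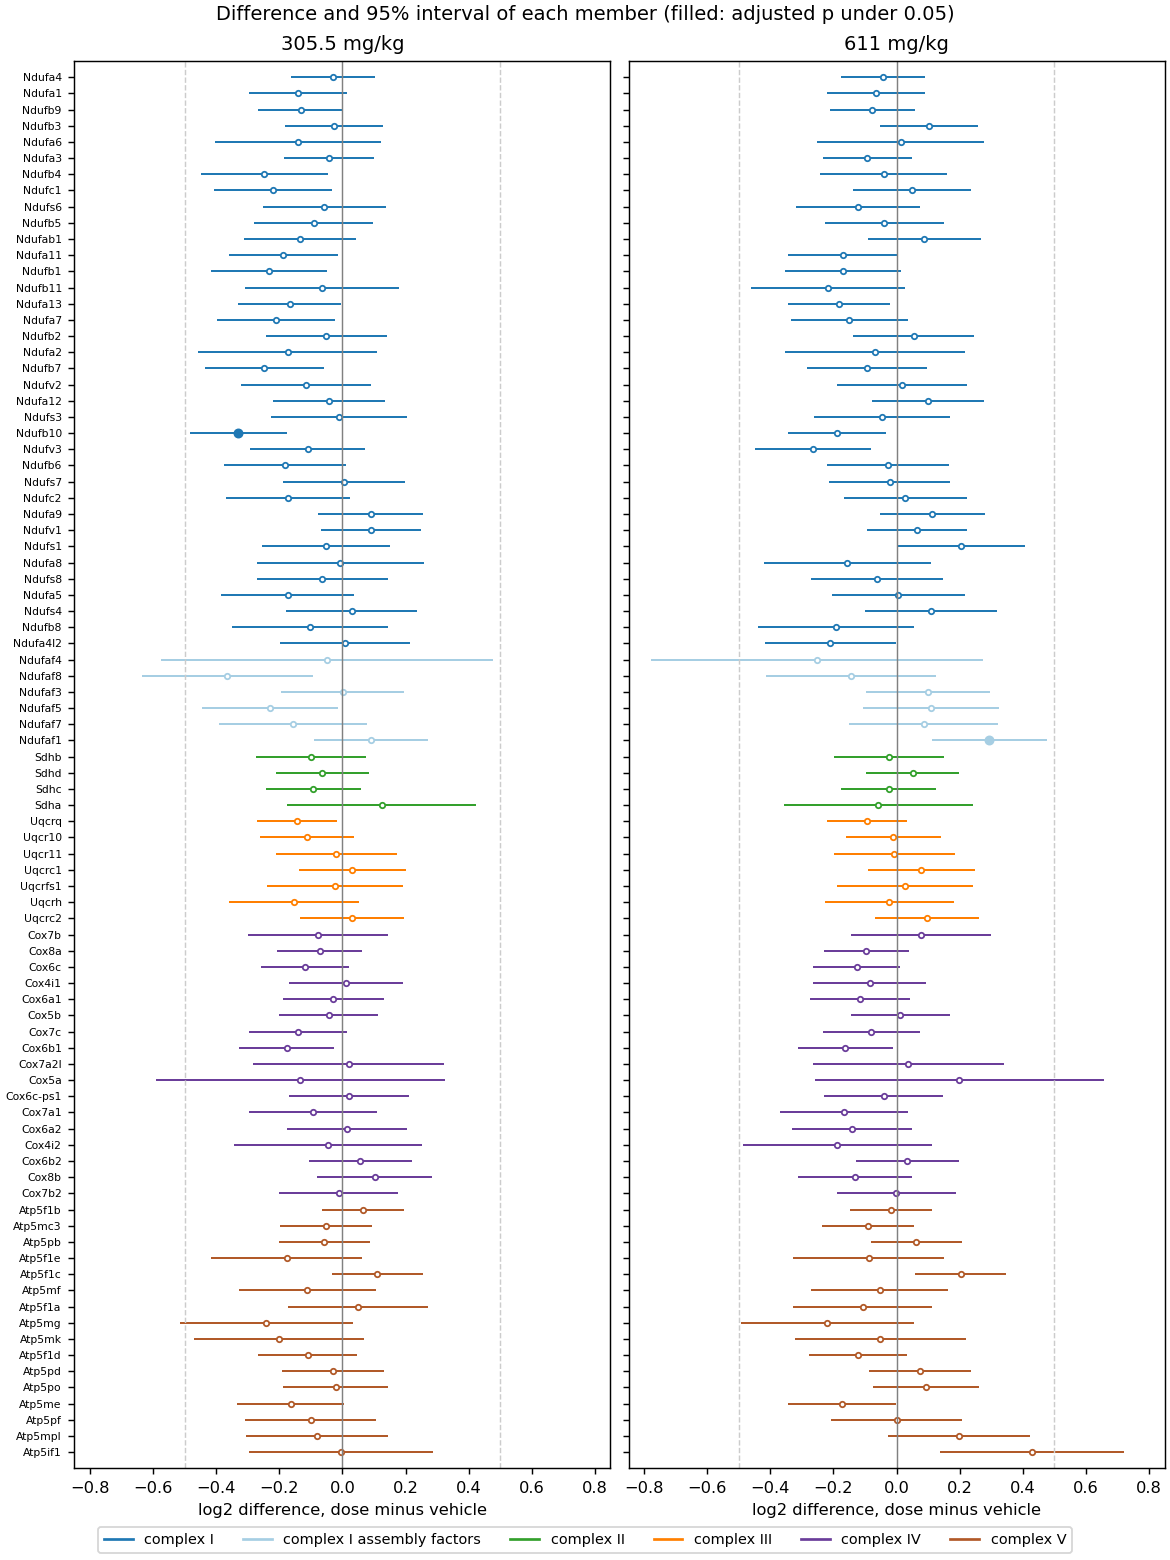
Log2 difference from vehicle of each of the 86 members at 305.5 mg/kg (left) and 611 mg/kg (right), in colours by complex, with bars for the 95% interval and dashed lines at 0.5 to either side. Filled points mark Ndufb10 on the left and Ndufaf1 on the right, and most of the other points lie left of zero at 305.5 mg/kg.

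Promoters of these genes are known to share sites for NRF1, for the ETS factor GABP, for YY1 and for the estrogen-related receptors. RefSeq windows of the GRCr8 assembly, from 250 bases before to 50 after each gene's start, were found for 78 of the 86 members, matched by gene. They were searched on both strands for CGCANGCG (NRF1), CCGGAAG (ETS), AAGATGGC (YY1) and AAGGTCA (estrogen-related receptor). The NRF1 core lay in 25 of the 78 (32.1%), against 13.8% of the windows of 13192 genes on the array. The ETS core lay in 22 (28.2% against 14.2%), the YY1 core in 17 (21.8% against 4.48%) and the receptor core in 11 (14.1% against 3.31%). In no member did hits of different motifs overlap. The stretches from 80 bases before to 30 after the start are shown for both called genes and, chosen after the search for holding several motifs, for Ndufa6 and Cox8a, in the direction of the gene with the motifs in capitals.
Ndufb10: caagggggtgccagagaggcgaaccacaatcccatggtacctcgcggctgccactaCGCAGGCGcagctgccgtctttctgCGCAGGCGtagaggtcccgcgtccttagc
Ndufaf1: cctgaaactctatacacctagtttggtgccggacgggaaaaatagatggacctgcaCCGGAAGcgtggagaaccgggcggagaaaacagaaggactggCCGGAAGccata
Ndufa6: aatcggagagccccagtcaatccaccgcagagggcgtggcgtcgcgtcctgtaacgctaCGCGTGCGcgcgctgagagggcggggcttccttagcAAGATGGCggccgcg
Cox8a: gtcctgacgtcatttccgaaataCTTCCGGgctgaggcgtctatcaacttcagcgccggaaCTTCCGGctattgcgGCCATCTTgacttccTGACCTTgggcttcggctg

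In GRCr8 these stretches are chr10:14255937-14256046, chr3:127103991-127104100, chr7:115750288-115750397 and chr1:213833594-213833703, all on the minus strand. The Ndufb10 stretch holds the NRF1 core at 2 places and the Ndufaf1 stretch holds the ETS core at 2 places. Ndufa6 has the NRF1 core on the reverse strand and the YY1 core, and Cox8a has the ETS core at 2 places, the YY1 core and the receptor core, all on the reverse strand. Members with the ETS core had a median difference of -0.12 at 305.5 mg/kg and those without it -0.061. For the NRF1 core these medians were -0.11 and -0.066, for the YY1 core -0.072 and -0.081 and for the receptor core -0.072 and -0.092. At 611 mg/kg they were -0.064 with and -0.019 without the ETS core, -0.011 and -0.027 for NRF1, -0.053 and -0.024 for YY1 and -0.091 and -0.022 for the receptor core, so that the order depended on the motif and the dose. These matches describe letters in the window and no binding was measured.

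Complex I is an L of a peripheral arm, where NADH is oxidised, and a membrane arm. Its core subunits carry the flavin and the iron-sulfur clusters, and its accessory subunits surround and hold the core. The 6 measured nuclear core subunits (Ndufs1, Ndufs3, Ndufs7, Ndufs8, Ndufv1 and Ndufv2) had a median difference of -0.032 at 305.5 mg/kg and -0.003 at 611 mg/kg. The other 30 genes put in complex I by name, Ndufa4 and Ndufa4l2 among them, had a median of -0.13 at 305.5 mg/kg and -0.067 at 611 mg/kg. At 305.5 mg/kg 27 of 30 were fitted below vehicle. This split into core and other genes was made after their values were seen, and the difference between both sets was not tested.

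Among core subunits, Ndufs1, the largest iron-sulfur subunit of the peripheral arm, read 11.14, 11.34, 11.39, 10.94 and 11.16 in the 5 vehicle rats and 11.31, 11.43 and 11.45 at 611 mg/kg. The groups overlapped, since rat 1 at 611 mg/kg lay within the vehicle range. The difference was 0.21 ± 0.09 (SE; limma adjusted p = 0.196). Ndufv1, which holds the flavin that takes electrons from NADH, differed by between 0.06 and 0.09 at the 4 doses, with adjusted p-values of 0.624 to 0.711.

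Ndufb10, an accessory subunit of the membrane arm, fell at 305.5 mg/kg. Its signal was 11.56, 11.67, 11.70, 11.49 and 11.63 in the vehicle rats and 11.21, 11.30 and 11.33 at 305.5 mg/kg. All 3 treated rats lay under every vehicle rat, and the difference was -0.33 ± 0.07 (SE; 95% interval -0.48 to -0.18; limma adjusted p = 0.0202), a fold of 0.795. The rats of 611 mg/kg read 11.42, 11.41 and 11.42. These too lay under the vehicle range, but the difference of -0.19 did not pass (adjusted p = 0.118). At 76.5 mg/kg it was -0.18 and at 153 mg/kg -0.15, each with 2 of 3 rats under the vehicle range. The call at 305.5 mg/kg was lost without vehicle rat 3 (adjusted p = 0.0568) and without rat 1, 2 or 3 of its own dose (0.118, 0.0648 and 0.0585), while the difference stayed between -0.36 and -0.29 whichever rat was left out.

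Other genes of the membrane arm read low in the same rats without passing the test. Ndufb7, another accessory subunit, read 11.79, 11.84, 11.73, 11.83 and 11.80 in the vehicle rats and 11.70, 11.40 and 11.55 at 305.5 mg/kg. The 3 treated rats lay under the vehicle range, rat 1 by the least, and the difference was -0.25 ± 0.09 (SE; adjusted p = 0.193). At 611 mg/kg it read 11.59, 11.94 and 11.58, so that 2 rats lay under the vehicle range and rat 2, whose array stood apart, above it. Ndufb9 differed by -0.13 at 305.5 mg/kg (adjusted p = 0.369). Counting all members, 16 had all 3 rats at 305.5 mg/kg under the vehicle range, a share of 18.6% against 7.34% of all genes, and 0 had all 3 above it (6.37% of all genes). Complex I gave 10 of the 16: Ndufb1, Ndufb4, Ndufb7, Ndufb9, Ndufb10, Ndufa6, Ndufa7, Ndufa11, Ndufa13 and Ndufc1, listed after their values were seen. The other 6 were the assembly factor Ndufaf8, the complex IV subunits Cox6b1 and Cox6c, and Atp5me, Atp5mg and Atp5mk of the membrane part of complex V.

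The number of members called lower at 305.5 mg/kg moved with how the arrays were weighed. With arrays weighted by their fitted variance, 10 members were called lower (11.6%, against 4.75% of all genes): Cox6b1, Ndufa13, Ndufa7, Ndufaf8, Ndufb1, Ndufb10, Ndufb4, Ndufb7, Ndufc1 and Uqcrq. Without the 3 arrays that stood apart, none of which is of this dose, 5 were called (5.81%, against 3.42% of all genes): Ndufaf8, Ndufb1, Ndufb10, Ndufb4 and Ndufb7. Leaving out 76.5 mg/kg rat 2 alone gave 2, and leaving out any rat of 305.5 mg/kg or vehicle rat 3 gave 0.

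Ndufv3, an accessory subunit of the NADH-oxidising module, has a pair of probe sets with differences of opposite sign. The brighter one, used above, read 11.59, 11.61, 11.60, 11.45 and 11.70 in the vehicle rats and 11.37, 11.28 and 11.33 at 611 mg/kg. All 3 treated rats lay under the vehicle range, and the difference was -0.26 ± 0.09 (SE; limma adjusted p = 0.0667). The dimmer one read 8.06, 7.75, 7.93, 7.95 and 8.17 in the vehicle rats and 8.27, 8.39 and 8.69 at 305.5 mg/kg. All 3 rats of that dose lay above the vehicle range, as did all 3 at 153 mg/kg with 8.31, 8.34 and 8.37. At 611 mg/kg it read 8.38, 7.99 and 8.50, with rat 2 inside the vehicle range. When every one of the 20826 probe sets was tested, the dimmer one differed by 0.48 ± 0.13 at 305.5 mg/kg (SE; adjusted p = 0.0694) and by 0.32 at 611 mg/kg (0.152). Neither probe set passed, and which transcripts each one reads is not given in the tables used here. The mean of both turned the sign of the Ndufv3 difference at 611 mg/kg, to 0.03.

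**Figure D2:**
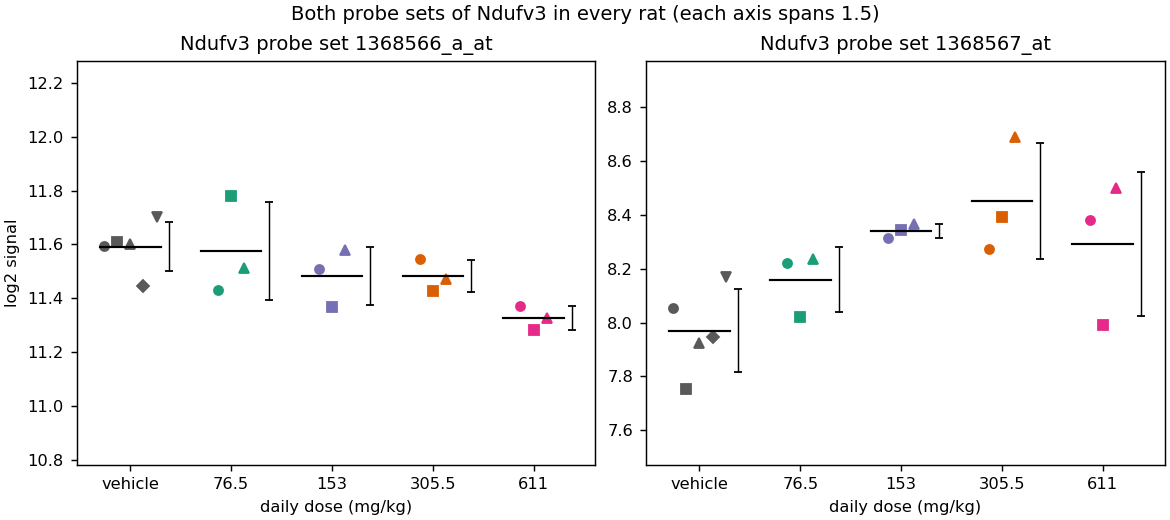
Log2 signal of both Ndufv3 probe sets in every rat by daily dose in mg/kg, with 1 marker shape per rat number, a line at the group mean and a bar for the SD. The brighter probe set (left) lies under the vehicle range in all 3 rats at 611 mg/kg, and the dimmer one (right) lies above it in all 3 rats at 153 and at 305.5 mg/kg.

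Ndufa9, an accessory subunit near the ubiquinone site, was the 1 member with all 3 rats above the vehicle range at 76.5 mg/kg (3.14% of all genes), where 0 members had all 3 below (3.16% of all genes, 6.3% in either direction). It read 11.30, 11.41, 11.39, 11.42 and 11.34 in the vehicle rats and 11.47, 11.72 and 11.46 at that dose. Rats 1 and 3 lay just above the highest vehicle rat, and the difference of 0.17 ± 0.08 did not pass (SE; adjusted p = 0.432). Its second probe set is near background, with a vehicle mean of 4.48, and the mean of both gave -0.03.

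The complex I assembly factors put the subunits together and leave. Ndufaf1, which works with Acad9 on the membrane arm, rose at 611 mg/kg. Its signal was 6.91, 7.16, 7.13, 7.06 and 7.08 in the vehicle rats and 7.24, 7.41 and 7.43 at 611 mg/kg. Each treated rat lay above every vehicle rat, and the difference was 0.29 ± 0.08 (SE; 95% interval 0.12 to 0.47; limma adjusted p = 0.043), a fold of 1.23. At the lower doses it lay between 0.09 and 0.11, with adjusted p-values of 0.685 to 0.714. The call was lost under 18 of 29 alternative settings, with adjusted p-values of up to 0.164, among them the fits without vehicle rat 1 (0.0990), 611 mg/kg rat 2 (0.157) or rat 3 (0.133) and the fit without the 3 arrays that stood apart (0.116). It was also lost without vehicle rat 3, 4 or 5, without any 1 rat of 153 mg/kg and without rat 1 or 3 of 305.5 mg/kg (0.0509 to 0.0755). The difference lay between 0.25 and 0.35 in all of these 29.

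Acad9, an acyl-CoA dehydrogenase that also serves as a complex I assembly factor, read 10.32, 10.44, 10.47, 10.30 and 10.35 in the vehicle rats and 10.86, 11.03 and 10.94 at 611 mg/kg. The groups did not overlap. It rose by 0.57 ± 0.09 at 611 mg/kg (SE; limma adjusted p = 0.00191) and kept its call under all 29 alternative settings (adjusted p-values of 0.000199 to 0.0252). Ecsit, Tmem126b and Timmdc1, which act with both proteins, differed by 0.08, 0.33 and 0.07 at 611 mg/kg, with adjusted p-values of 0.542, 0.224 and 0.716; these were named after their values were seen. Of the other Ndufaf genes, Ndufaf8 read 9.22, 9.28, 9.42, 9.24 and 9.40 in the vehicle rats and 9.18, 8.79 and 8.88 at 305.5 mg/kg. All 3 lay under the vehicle range, rat 1 by the least, and the difference of -0.36 ± 0.13 did not pass (SE; adjusted p = 0.177). Ndufaf4 varied more between rats, with a 95% interval of -0.78 to 0.27 at 611 mg/kg.

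**Figure D3:**
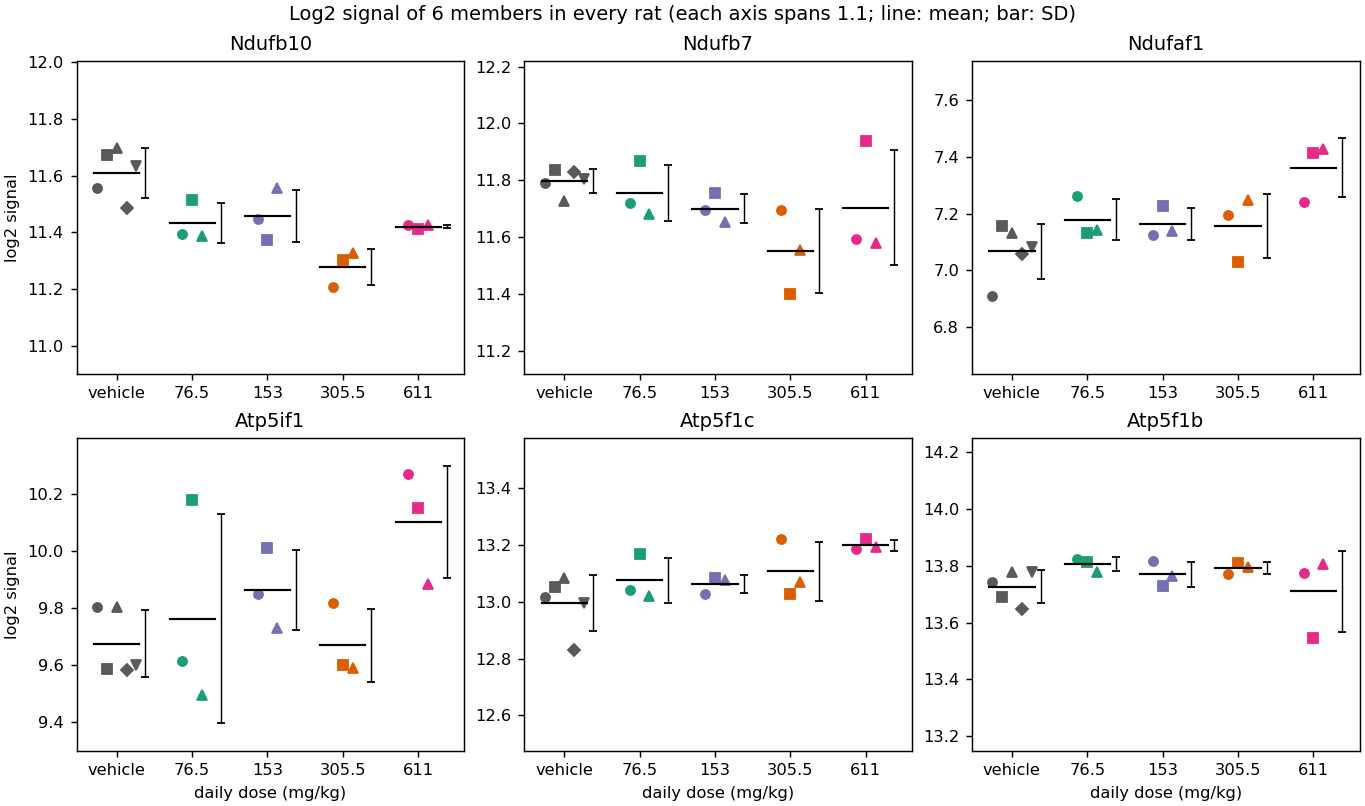
Log2 signal of 6 members in every rat by daily dose in mg/kg, with 1 marker shape per rat number, a line at the group mean and a bar for the SD, on axes of equal span. Ndufb10 is under its vehicle range in all rats at 305.5 and 611 mg/kg, and Ndufaf1, Atp5if1 and Atp5f1c are above theirs in all rats at 611 mg/kg.

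Complex II is the succinate dehydrogenase of the citric acid cycle, with a flavin subunit (Sdha), an iron-sulfur subunit (Sdhb) and a pair of membrane anchors (Sdhc and Sdhd). None of the 4 passed at any dose. Sdha read 11.53, 11.47, 11.71, 11.15 and 11.49 in the vehicle rats, 11.57, 11.60 and 11.62 at 305.5 mg/kg and 11.57, 10.97 and 11.70 at 611 mg/kg. The lowest value of all belonged to 611 mg/kg rat 2, whose array stood apart, and the groups overlapped. Sdhb, Sdhc and Sdhd differed by -0.10, -0.09 and -0.06 at 305.5 mg/kg and by -0.02, -0.02 and 0.05 at 611 mg/kg, with adjusted p-values of at least 0.630.

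Complex III holds the core proteins Uqcrc1 and Uqcrc2, the Rieske iron-sulfur protein Uqcrfs1 and small subunits around them. None of its 7 genes passed. Uqcrc1 and Uqcrc2 differed by 0.03 at 305.5 mg/kg and by 0.08 and 0.10 at 611 mg/kg, and Uqcrfs1 by -0.02 and 0.03. Uqcrq read 13.52, 13.60, 13.56, 13.47 and 13.53 in the vehicle rats and 13.48, 13.34 and 13.36 at 305.5 mg/kg. Rats 2 and 3 lay under the vehicle range and rat 1 within it, and the difference of -0.14 ± 0.06 did not pass (SE; adjusted p = 0.264).

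Complex IV, cytochrome c oxidase, has nuclear subunits in tissue-specific isoforms. The 6 isoforms known from muscle, lung or testis (Cox4i2, Cox6a2, Cox6b2, Cox7a1, Cox7b2 and Cox8b) had vehicle means under log2 6, near background, where a change is understated. Skeletal muscle markers had a median vehicle signal of 4.87. The partner isoforms that are found in most tissues had vehicle means of 13.07 (Cox4i1), 12.71 (Cox6a1), 12.35 (Cox6b1) and 13.27 (Cox8a). None of either set passed at any dose. Cox4i1 differed by 0.01 ± 0.08 at 305.5 mg/kg and by -0.09 ± 0.08 at 611 mg/kg (SE; adjusted p = 0.972 and 0.555).

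Cox6b1, which joins the monomers of the complex IV dimer, had the lowest difference of complex IV at 305.5 mg/kg. It read 12.33, 12.39, 12.40, 12.30 and 12.33 in the vehicle rats, 12.23, 12.23 and 12.06 at 305.5 mg/kg and 12.28, 12.12 and 12.16 at 611 mg/kg. All 6 rats of these doses lay under the vehicle range. The differences were -0.18 ± 0.07 and -0.16 ± 0.07 (SE), and neither passed (adjusted p = 0.249 and 0.167). Cox5a, a nuclear subunit on the matrix side, had a vehicle mean of 7.82 and was measured with less precision, with a 95% interval of -0.26 to 0.65 at 611 mg/kg. A further Cox5a probe set carries a second symbol and was not used, so these values describe only the probe set kept.

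In complex V, the ATP synthase, a head of alpha and beta subunits (Atp5f1a and Atp5f1b) makes ATP around a turning central stalk (Atp5f1c). Atp5f1b read 13.74, 13.69, 13.78, 13.65 and 13.78 in the vehicle rats and 13.78, 13.55 and 13.81 at 611 mg/kg. The groups overlapped, and its 95% interval at that dose was -0.14 to 0.11. Atp5f1c read 13.02, 13.05, 13.08, 12.83 and 12.997 in the vehicle rats and 13.18, 13.22 and 13.19 at 611 mg/kg. All 3 treated rats lay above the vehicle range, and the difference was 0.20 ± 0.07 (SE; adjusted p = 0.0739).

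Atp5if1, the inhibitor that stops the synthase from running backwards, had the largest difference of any member at 611 mg/kg. It read 9.80, 9.58, 9.80, 9.58 and 9.60 in the vehicle rats and 10.27, 10.15 and 9.89 at 611 mg/kg. The groups did not overlap, and the difference of 0.43 ± 0.14 fell short of the threshold (SE; adjusted p = 0.0656). Its further 2 probe sets gave 0.18 and 0.29. Without 76.5 mg/kg rat 2, limma called Atp5if1 and Atp5f1c higher and Ndufv3 lower at 611 mg/kg, and without 76.5 mg/kg rat 3 it called Atp5if1. Values of 10.18 in 76.5 mg/kg rat 2 and 10.01 in 153 mg/kg rat 2 lay within the range of the top dose. In all, 4 members had all 3 rats at 611 mg/kg above the vehicle range (11.5% of all genes): Atp5f1c, Atp5if1, Ndufa9 and Ndufaf1. Another 10 had all 3 below it (7.13% of all genes). These included Ndufb10, Ndufv3, Cox6b1 and Ndufaf8. For 153 mg/kg, 3 members had all 3 rats below the vehicle range (4.42% of all genes) and 0 above it (8.3% of all genes).

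Seen as a set, the members shifted by little, and unevenly between rats. The median member difference was 0.025, -0.011, -0.069 and -0.040 from the lowest to the highest dose, where all genes had medians of 0.009, 0.007, 0.007 and -0.003. At 305.5 mg/kg 67 of 86 members were fitted below vehicle (77.9%), against 48.2% of all genes and 59.3% of the 2058 genes with a vehicle mean of at least log2 10. Complex I gave 31 of its 36 and complex V 13 of its 16. Leaving out each rat in turn kept the median at this dose between -0.097 and -0.060. At 76.5 mg/kg the median turned to -0.056 without rat 2. At 153 mg/kg it turned to 0.003 without vehicle rat 2. For 611 mg/kg it was -0.018 without rat 2 and -0.016 without vehicle rat 3.

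The median deviation of the 86 members from the vehicle mean was -0.024, 0.053, 0.049, -0.056 and -0.018 in the vehicle rats. It was -0.053, 0.17 and -0.046 at 76.5 mg/kg, -0.004, -0.011 and -0.014 at 153 mg/kg, -0.023, -0.11 and -0.10 at 305.5 mg/kg and -0.031, -0.039 and -0.005 at 611 mg/kg. One treated rat lay above the vehicle range, rat 2 at 76.5 mg/kg, and 2 lay below it, rats 2 and 3 at 305.5 mg/kg. In 76.5 mg/kg rat 2, 58 of 86 members (67.4%) were above every vehicle rat, against 32.6% of all genes. In rats 2 and 3 at 305.5 mg/kg, 41 (47.7%) and 38 (44.2%) were below every vehicle rat, against 23.4% and 22.6% of all genes. A vehicle rat reached a like share: in vehicle rat 4, 43 of 86 members (50%) were below the other 4 vehicle rats, against 26.6% of all genes. The shift of 76.5 mg/kg rat 2 ran through complexes I, III, IV and V, with medians of 0.18, 0.16, 0.11 and 0.21, and was -0.004 in complex II. It was not particular to the members. In the same rat the medians were 0.24 for mitochondrial ribosomal proteins and 0.25 for mitochondrial import genes. The lowest median of the other mitochondrial lists was 0.02, for the citric acid cycle and pyruvate dehydrogenase.

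**Figure D4:**
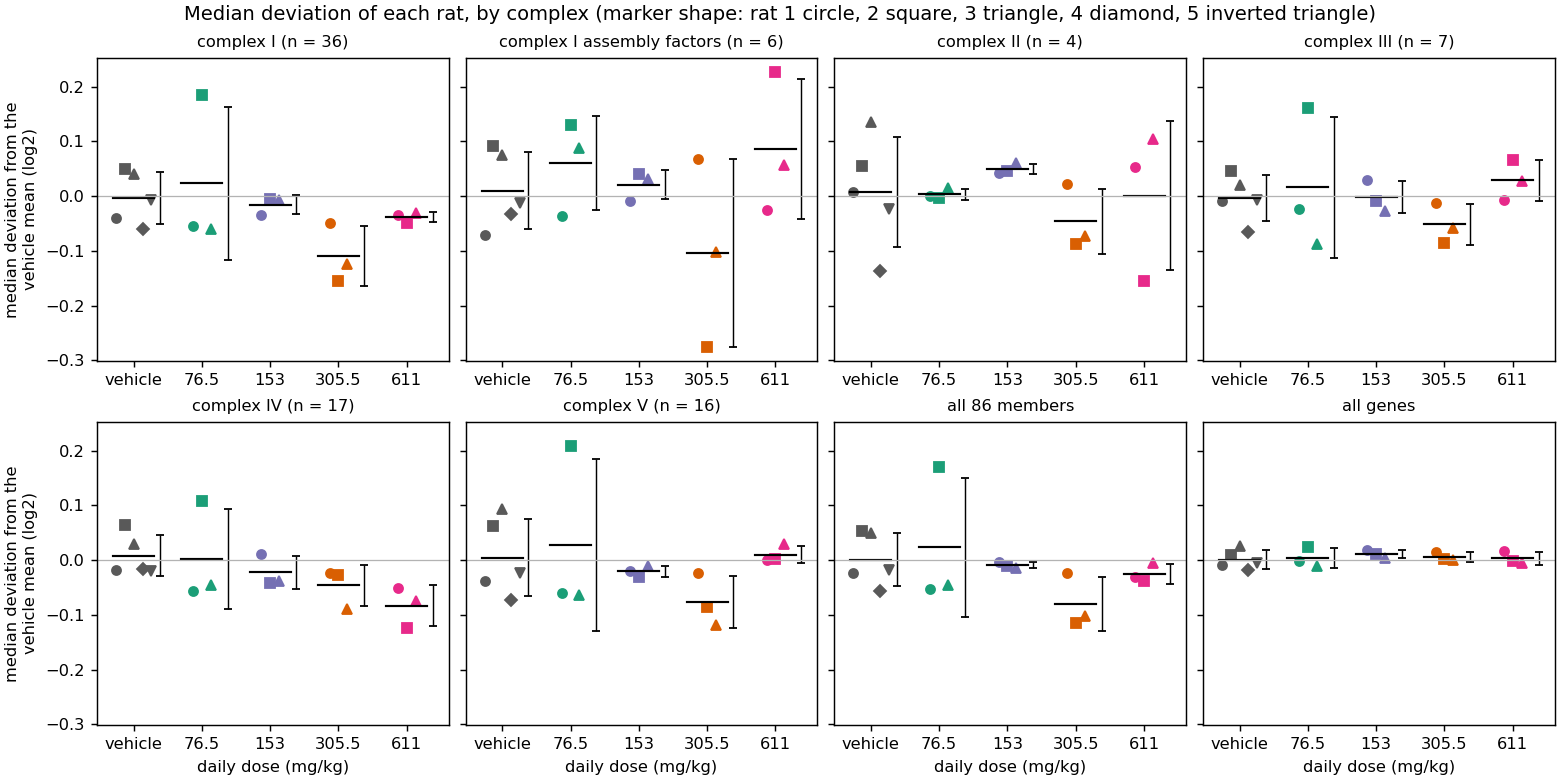
Median deviation from the vehicle mean (log2) of each rat, for the members of each complex, all 86 members and all 14217 genes, by daily dose in mg/kg, with a line at the group mean and a bar for the SD over rats. Rat 2 at 76.5 mg/kg is above the vehicle rats in complexes I, III, IV and V and in the complex I assembly factors. Rats 2 and 3 at 305.5 mg/kg are below the vehicle rats in complexes I, IV and V and in the complex I assembly factors.

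**Figure D5:**
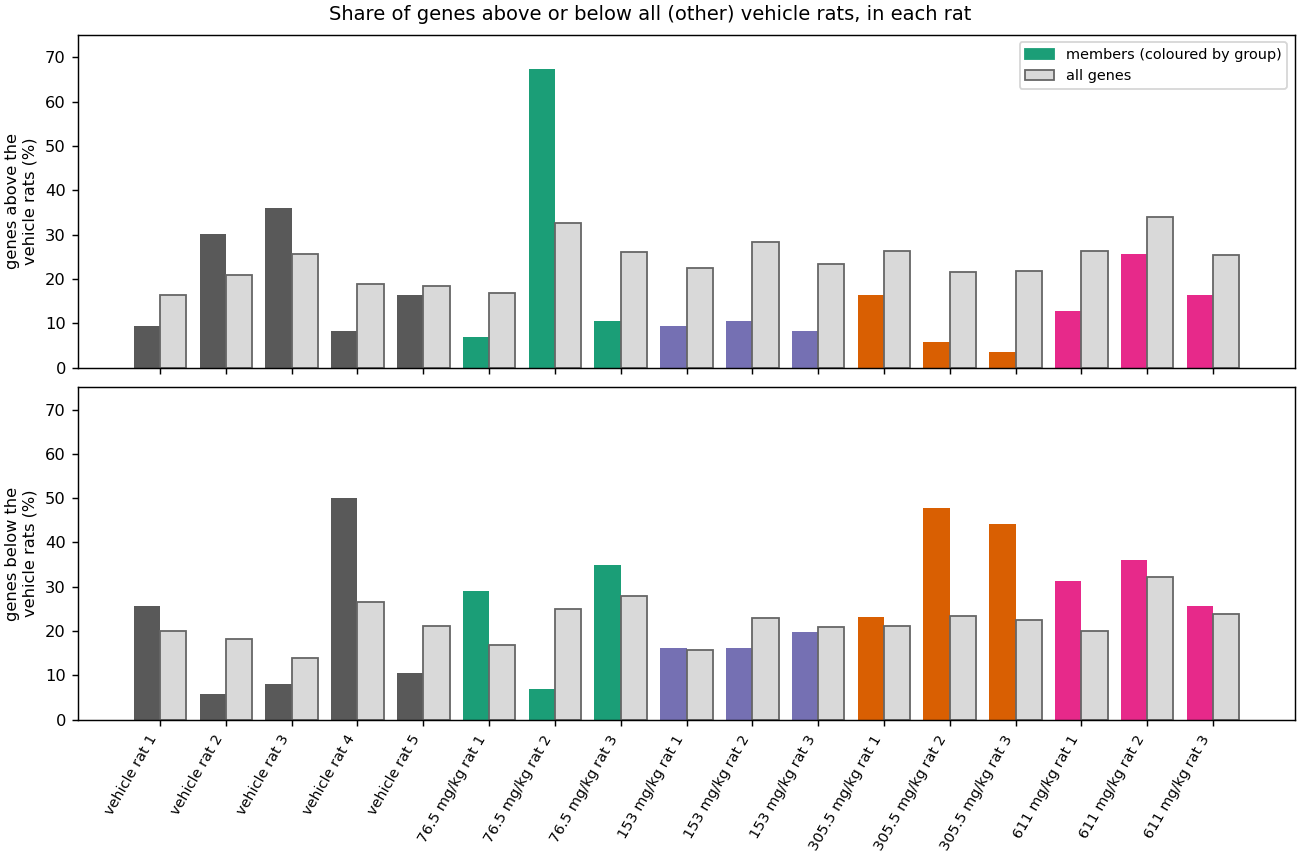
Share of genes (%) above (top) or below (bottom) all vehicle rats in each rat, for the members (coloured by group) and all genes (grey); each vehicle rat is set against the other 4. Members exceed all genes above the vehicle rats in 76.5 mg/kg rat 2 (67.4% against 32.6%) and below them in 305.5 mg/kg rats 2 and 3 and vehicle rat 4.

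Of 19 measured regulators of mitochondrial genes, Gabpa and Gabpb1, the alpha and beta chains of GABP, were the only ones called at any dose. That was 1 of 19 higher at 305.5 mg/kg (0.753% of all genes) and 1 of 19 higher at 611 mg/kg (5.04% of all genes). The count at 611 mg/kg is near the share of all genes. Gabpb1 read 7.10, 7.24, 7.39, 7.11 and 7.35 in the vehicle rats and 8.004, 7.66 and 8.12 at 305.5 mg/kg. The groups did not overlap, and it rose by 0.69 ± 0.16 (SE; limma adjusted p = 0.0247), a call lost without vehicle rat 1 or 4 (0.0633 and 0.0531) or without rat 1 or 3 of its own dose (0.118 and 0.157). Gabpb1 was not called at the other doses. It read 7.67, 7.64 and 7.61 at 153 mg/kg and 7.70, 7.72 and 7.76 at 611 mg/kg, each above every vehicle rat. At 76.5 mg/kg it read 7.74, 8.29 and 7.35, with rat 3 inside the vehicle range. Gabpa rose by 0.51 ± 0.14 at 611 mg/kg (SE; adjusted p = 0.038), with 8.21, 8.87 and 8.40 against 7.74 to 8.18 in the vehicle rats. Without 611 mg/kg rat 2, whose array stood apart, it differed by 0.32 (adjusted p = 0.249), and the call was lost under 12 of 29 settings in all, among them the fits without vehicle rat 1, 3, 4 or 5 and without 611 mg/kg rat 3. Nrf1, Esrra and the coactivator Ppargc1a differed by 0.01, -0.05 and 0.05 at 611 mg/kg, with adjusted p-values of at least 0.765, and were named after their values were seen. The lowest and highest differences of the 19 at that dose were -0.78 (Pprc1) and 0.66 (Esrrg), neither of them called. Of the 19, 6 had an unadjusted p under 0.05, where 24.2% of all genes did.

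Other lists around the respiratory chain are read against the 5.04% of all genes called higher and the 2.42% called lower at 611 mg/kg. Of 40 assembly factors outside the Ndufaf names, 2 were called at that dose, both higher, a share near that of all genes. Cox15, which makes heme A for complex IV, rose by 0.43 ± 0.10 beside Acad9 (SE; adjusted p = 0.0159), with 0.20 as the mean of its probe sets (0.267) and no call without 611 mg/kg rat 2 or 3 (0.0641 and 0.0632). None of 18 genes for electron carriers and ubiquinone and none of 14 genes of the citric acid cycle and pyruvate dehydrogenase was called by limma at any dose. In the cycle list 2, 1, 2 and 3 genes had an unadjusted p under 0.05 from the lowest to the highest dose, and in the carrier list 0, 0, 2 and 2. Over all genes the shares were 10.7%, 11.9%, 13.5% and 24.2%. Of 10 carriers, Vdac2, a channel of the outer membrane, rose by 0.31 ± 0.08 at 611 mg/kg (SE; adjusted p = 0.03), a call lost without vehicle rat 1, 4 or 5 or without rat 1 or 3 of its own dose (0.0576 to 0.141), and with median centring (0.0834). Of 73 mitochondrial ribosomal proteins, 1 was called at 611 mg/kg: Mrps7 fell by 0.30 ± 0.09 (SE; adjusted p = 0.0438), a call lost under 15 of 29 settings, among them the fits without any single vehicle rat, 153 mg/kg rat 1 or 3, 305.5 mg/kg rat 3 or 611 mg/kg rat 1 or 2 (0.0511 to 0.201). Their median was -0.083 at 305.5 mg/kg, with 49 of 73 fitted below vehicle, and 0.084 at 611 mg/kg, with 52 of 73 fitted above. Of 23 import genes, Timm21, a subunit of the inner membrane translocase, rose by 0.59 ± 0.12 at 611 mg/kg (SE; adjusted p = 0.00792), and by 0.48 without rat 2 of that dose, where the call was lost (0.0573).

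Among 14 mitochondrial chaperones and proteases, Clpx, the unfolding subunit of the ClpXP protease, fell at 3 doses. It read 11.54, 11.84, 11.83, 11.60 and 11.55 in the vehicle rats, 11.17, 11.18 and 11.18 at 153 mg/kg, 10.98, 10.85 and 11.14 at 305.5 mg/kg and 10.89, 10.86 and 10.98 at 611 mg/kg. Every rat of these doses lay under every vehicle rat. The differences were -0.49, -0.68 and -0.76, each with an SE of 0.09 (limma adjusted p = 0.0124, 0.000519 and 0.000131). The calls at 305.5 and 611 mg/kg held under all 29 settings, and that at 153 mg/kg was lost without rat 1 or 2 of that dose (0.0666 and 0.0747). At 76.5 mg/kg it read 11.36, 11.27 and 11.23, also under the vehicle range, with a difference of -0.39 that did not pass (adjusted p = 0.0925). Hspe1, the co-chaperone of the matrix chaperonin, fell by 0.37 ± 0.08 at 305.5 mg/kg (SE; adjusted p = 0.0202), a call lost without vehicle rat 3 or without rat 2 or 3 of that dose (0.0567, 0.0710 and 0.130).

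Markers of endothelial cells, macrophages and stellate cells read low at both doses where members were called. All 8 endothelial markers were fitted below vehicle at each of these doses. They had a median difference of -0.40 at 305.5 mg/kg, where 1 was called lower, and -0.41 at 611 mg/kg, where 4 were called lower (Stab2, Lyve1, Pecam1 and Kdr). Over all genes 1.47% and 2.42% were called lower at these doses, and 13.5% and 24.2% had an unadjusted p under 0.05. The 9 macrophage markers had medians of -0.37 and -0.33 at these doses, with 0 called by limma and 6 and 5 at an unadjusted p under 0.05. Of 10 stellate cell markers, 1 and 2 were called lower, with medians of -0.29 and -0.35. These markers had medians of -0.094 and -0.18 already at 76.5 and 153 mg/kg, where 0 were called. The red cell genes Hbb and Alas2 fell at 611 mg/kg. Other lists differed: the 6 lymphocyte markers had medians of 0.067 and -0.19 at 305.5 and 611 mg/kg with 0 called (0 and 3 at an unadjusted p under 0.05), and the 5 cholangiocyte markers -0.037 and -0.059, of which Epcam rose by 0.72 and Krt7 fell by 0.43 at 611 mg/kg (limma adjusted p = 0.0167 and 0.0332). In the vehicle rats the median endothelial deviation ran from -0.090 to 0.13 and the macrophage one from -0.40 to 0.19. The endothelial one was -0.52, -0.23 and -0.33 at 305.5 mg/kg, while that of the members was -0.023, -0.11 and -0.10, so the rat lowest in one was the highest in the other. The part of these cells in the member values was not tested. The 3' minus 5' difference of the GAPDH and actin controls gave p-values of 0.232 to 0.893 in 8 two-sided exact permutation tests of a dose against vehicle (adjusted p = 0.738 to 0.893), in which 56 splits are possible.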

How the data were processed

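Liver RNA of 17 rats was measured on 1 array each. The deposited values are log2 signals per probe set that the authors made with RMA, per the submitters' processing notes; the software behind it is not given in the sources used here. Groups came from the sample labels. Of 31099 probe sets, 20826 carried 1 gene symbol in the platform table (annotation of 2016), 436 several and 9780 none, and 57 were controls. Each gene was read from its probe set with the highest mean, with no filter on signal, and all 86 member symbols matched the RefSeq gene table by gene ID.

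Differences were fitted with limma 3.58.1 in R 4.3.3 over all arrays (5 groups as a factor, no block, eBayes with trend), with the dose rank as a second model. P-values were adjusted by Benjamini-Hochberg over 14217 genes. The fit was tested on simulated data. Genes named were those called, those with the 3 smallest p-values at each dose or, over dose rank, in each direction, the catalytic subunits, the isoform pairs and the brightest and dimmest genes of each complex. From each list, up to 4 genes with the smallest p at 611 mg/kg, or all called where there were 5 or fewer, could be named. The members, lists and this rule were chosen with earlier results of these data known. Replicate numbers name rats, and no sample protocol names a pairing of rats across doses, so the numbers were not taken as pairs. Of 30 same-numbered pairs of rats, 10 correlated over 0.1 in their deviations from the group means. Alternatives were other summaries of probe sets, a filter on dim genes, array weights, arrays centred on their medians, quantile normalization applied again, other eBayes settings, a replicate block, each dose and vehicle alone, leaving out each rat or the 3 arrays that stood apart, the GAPDH control as a covariate and, for the slope, the dose in mg/kg and the slope without 611 mg/kg or in treated rats alone. Applying them to the pathway genes called at a dose was chosen after seeing the data.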

Additional observations from a re-analysis of the deposited data

Results flagged for a closer look

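Among 45 sets of 5 vehicle rats checked (38 named members and the medians of all members and of each complex), 2 had a rat far from the other 4, where chance gives about 1 in 20. Cox6a1, a complex IV subunit, read 12.52 in vehicle rat 4, and the other 4 vehicle rats lay between 12.73 and 12.79. Cox6a2, its muscle isoform, read 5.05 in vehicle rat 1, near background, and the others lay between 5.22 and 5.26.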

How the results depend on the processing

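No member was called higher at 76.5, 153 or 305.5 mg/kg, or lower at 153 mg/kg, under any of the 29 alternatives. With array weights 1 was called lower at 76.5 mg/kg (Ndufb10), 10 lower at 305.5 mg/kg, 2 higher and 1 lower at 611 mg/kg, and over dose rank 1 rose and 5 fell. Without the 3 arrays that stood apart these counts were 5 lower at 305.5 mg/kg, 0 higher at 611 mg/kg and 5 falling. The share of all genes called moved too. With array weights 4.75% were lower at 305.5 mg/kg (11.6% of members) and 8.48% higher at 611 mg/kg (2.33% of members). Without the 3 arrays these shares were 3.42% (5.81% of members) and 4.00% (0% of members). The other counts of this section are given without the share over all genes. They do not show whether members moved more than other genes did. With only the 2 groups compared, 2 were lower at 305.5 mg/kg and 1 at 611 mg/kg. At 611 mg/kg 0 were higher with every probe set tested, median centring, repeated quantile normalization or the GAPDH covariate, and 1 was lower with centring and 2 with quantile normalization. Over dose rank, leaving out the dimmest 40% or repeating quantile normalization gave 1 rising and 3 falling, centring 3 falling, the GAPDH covariate 2 falling and leaving out 611 mg/kg 1 falling. The median member difference at 153 mg/kg was -0.065 with centring, -0.020 with quantile normalization and -0.019 with array weights, and at 611 mg/kg -0.087 with centring, -0.0029 with array weights and -0.018 without the 3 arrays. The cause was not tested.

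Leaving out 1 rat at a time gave 0 to 2 members lower at 305.5 mg/kg, 0 to 3 higher and 0 to 1 lower at 611 mg/kg, 0 to 2 rising and 0 to 1 falling. The 3 higher, the 1 lower at 611 mg/kg (Ndufv3), 1 rising and 1 falling came without 76.5 mg/kg rat 2. The 2 rising (Atp5f1c and Ndufaf1) came without 305.5 mg/kg rat 2, and 1 fell without vehicle rat 4, 76.5 mg/kg rat 3 or 611 mg/kg rat 2. The median ranged from -0.020 to 0.0028 at 153 mg/kg and from -0.055 to -0.016 at 611 mg/kg. The mean over probe sets turned the sign of Ndufa9 at 76.5 mg/kg (-0.025) and of Ndufv3 at 611 mg/kg (0.028) and over dose rank (0.021), where the second probe set is part of the mean.

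With the replicate number as a block, 0 members were higher at 611 mg/kg (Ndufaf1 adjusted p = 0.164), the pathway calls of Gabpa (0.161), Gabpb1 (0.119), Cox15 (0.107), Mrps7 (0.120), Timm21 (0.0519) and Vdac2 (0.0986) were lost, and the median was -0.030 at 153 mg/kg and -0.072 at 611 mg/kg. Correlations of same-numbered rats ran from -0.259 to 0.399, and 6 of 15 rats correlated best with a rat of their own number. Correlations of differently numbered rats are not given here, so these values cannot decide whether the numbers mark pairs. Members near background are bounded as narrowly as the others, but a change there is understated.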
